A study of Arabidopsis thaliana with 9 samples.

Results

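SWEET genes encode membrane uniporters that let sugars pass along their gradient. The 10 SWEET genes described here were taken by locus, as a family list chosen by the large drop of 1 of them, SWEET11 (AT3G48740), in roots labelled as overexpressing SCL3. Of these 10, 9 lay on a probe set with 1 gene, and SWEET12 (AT5G23660) was on no such named probe set and is not analysed here. The remaining 7 genes of the 17-gene family, all on named probe sets, are given for comparison. Each of the 16 measured genes had 1 probe set, out of 22746 on the array and 13356 genes named by 1-gene probe sets.

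The samples were 9 Affymetrix ATH1 arrays of whole roots of Arabidopsis thaliana, taken 7 days after germination from plants on MS medium. Every plant carried ga1-3, a mutation of a gibberellin biosynthesis gene, and the series has 3 groups of 3 biological replicates: ga1-3 alone, ga1-3 with scl3-1, described as a loss of function of SCL3, which encodes a GRAS protein, and SCL3 overexpression in ga1-3 (SCL3 OE). No gibberellin-sufficient plants are in the series, so every comparison is between gibberellin-deficient roots. The promoter behind the overexpression and the number of independent lines are not given in the sources used here, and neither GA1 nor SCL3 was on a named probe set, so the genotypes could not be checked by signal. In these whole-root samples, fewer cells of a type and less RNA per cell cannot be told apart.

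As background, the Arabidopsis family is usually divided into clades by sequence. SWEET11, SWEET12, SWEET13, SWEET14 and SWEET15 belong to the clade of sucrose transporters of the plasma membrane. SWEET11 and SWEET12 are known for releasing sucrose from phloem parenchyma cells of leaves, and SWEET13 and SWEET14 also carry gibberellins. SWEET2, SWEET16 and SWEET17 sit in the vacuolar membrane and are known from roots, SWEET2 for retaining sugar and SWEET17 for moving fructose. SWEET1 and SWEET4 transport glucose and other hexoses.

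Values below are MAS5 signals, on a linear scale as deposited, or their log2. A probe set entered the tests if its signal reached the 40th percentile of the array on 3 or more arrays; that percentile, 105.9 on average, is called the filter level here. Of the 9 measured genes of the list, SWEET1, SWEET2, SWEET11, SWEET16 and SWEET17 were kept. SWEET1 reached its array's filter level on 5 arrays, just inside the limit, and SWEET15 on 2, just outside it. SWEET4, SWEET13 and SWEET14 reached it on 0 arrays. Tests are two-sided with limma over all 14117 kept probe sets, with Benjamini-Hochberg adjusted p-values, and a change was called at an adjusted p under 0.05. Errors of log2 changes are standard errors (SE) of that model.

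Of the sucrose transporter genes, SWEET11 (AT3G48740) was high in ga1-3 and scl3-1 roots and low in SCL3 OE roots. Its signal was 988, 1212 and 1038 on the ga1-3 arrays, 757, 1031 and 965 on the scl3-1 arrays, and 113, 128 and 162 on the SCL3 OE arrays. The 3 SCL3 OE arrays lay well below the other 6 and just above the filter level, whereas the ga1-3 and scl3-1 ranges overlapped. Mean signals were 1079 ± 118 for ga1-3 (SD, n = 3), 918 ± 143 for scl3-1 and 134 ± 25.5 for SCL3 OE. The log2 difference of SCL3 OE from ga1-3 was -3.02 (SE 0.15), or 8.09-fold lower, and only 9 of the 14117 kept probe sets had a more negative difference. From scl3-1 the difference was -2.78 (SE 0.15), or 6.85-fold lower. Since SWEET11 was selected on its signal in SCL3 OE, these differences are a description and carry no test. With an offset of 50 added before log2, the difference from ga1-3 was -2.62.

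The scl3-1 and ga1-3 roots had overlapping SWEET11 signals. The log2 change in scl3-1 against ga1-3 was -0.24 (SE 0.15, 95% interval -0.56 to 0.07) and did not pass (adjusted p = 0.628). This comparison shares the ga1-3 arrays with the one that chose the gene. The SWEET11 signal of scl3-1 replicate 1 was the lowest of these 6 arrays, and that of ga1-3 replicate 2 the highest.

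SWEET13 (AT5G50800), a sucrose and gibberellin transporter gene, had a low signal that was highest in SCL3 OE, where SWEET11 was lowest. It read 18.8, 17.2 and 13.5 in ga1-3, 44.3, 57.9 and 37.3 in scl3-1, and 68, 71.4 and 74 on the SCL3 OE arrays. No 2 groups overlapped, and the order from low to high was ga1-3, scl3-1, SCL3 OE. Among kept probe sets, groups did not overlap for 14.1% in scl3-1 against ga1-3 and 53.6% in SCL3 OE against ga1-3. That share was not computed for probe sets that were not kept, SWEET13 among them. All 9 values were below the filter level, where sizes of change are uncertain, and the gene was not among those tested. The log2 difference of group means from ga1-3 was 1.49 in scl3-1 and 2.12 in SCL3 OE, but 0.53 and 0.87 with an offset of 50. With the dim filter dropped, limma over all 22746 probe sets called SWEET13 as higher in SCL3 OE than in ga1-3 (SE 0.33, adjusted p = 0.000313), where 27.1% of probe sets were called in either direction. In that fit neither scl3-1 against ga1-3 (adjusted p = 0.114) nor SCL3 OE against scl3-1 (adjusted p = 0.191) passed for SWEET13. SWEET10 (AT5G50790), the next protein-coding gene on chromosome 5, did not share this order: its groups overlapped, between 3.26 and 38.6.

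Both other measured sucrose transporter genes overlapped between groups. SWEET14 (AT4G25010), the second known gibberellin carrier of the family, had signals of 24.2 to 64 in ga1-3, 36.2 to 53.9 in scl3-1 and 47.6 to 64.5 in SCL3 OE. SWEET15 (AT5G13170, also SAG29), named for its rise in senescing leaves, had signals of 78.5 to 130 in ga1-3, 81 to 107 in scl3-1 and 56.6 to 114.6 in SCL3 OE. Their log2 differences between SCL3 OE and ga1-3 were 0.38 for SWEET14 and -0.17 for SWEET15, neither tested in the kept set. Both are uncertain in size and sign. With 1 array left out, the SWEET14 difference ran from -0.0033 (without ga1-3 replicate 1) to 0.70. That of SWEET15 ran from -0.37 to 0.14 (without SCL3 OE replicate 1), and was 0.04 without ga1-3 replicate 3. In limma without the dim filter their 95% intervals were -0.42 to 1.18 and -0.79 to 0.45.

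**Figure D1:**
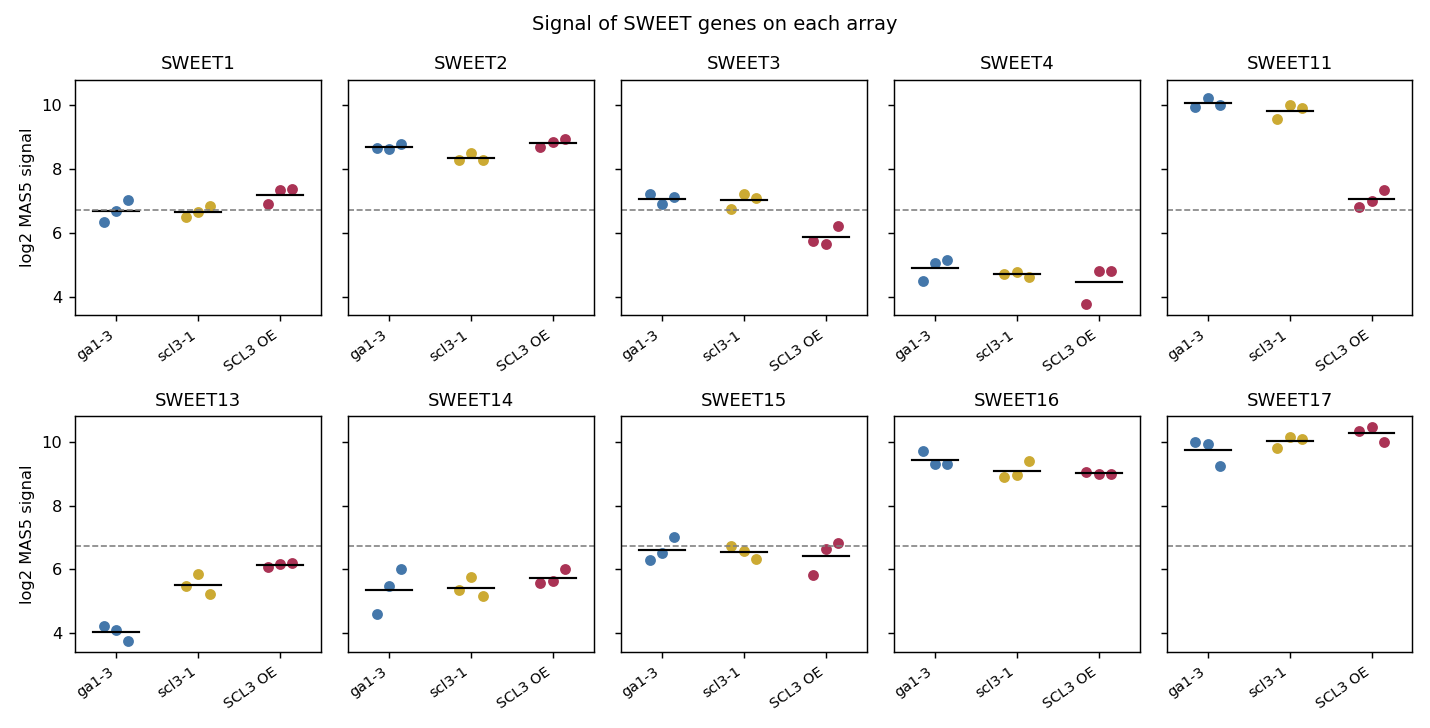
Log2 MAS5 signal (vertical axis) of the 9 measured genes of the list and of SWEET3 on each array, with points for the 3 arrays of each group, a black line at the group mean and a dashed line at the mean filter level of 105.9. SWEET11 and SWEET3 drop in SCL3 OE, SWEET13 steps up from ga1-3 to scl3-1 to SCL3 OE below the dashed line, and SWEET4, SWEET14 and SWEET15 overlap between groups.

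Among the vacuolar genes, SWEET17 (AT4G15920) and SWEET16 (AT3G16690) moved in opposite directions in SCL3 OE. The SWEET17 signal was 1021, 991 and 614 in ga1-3, 898, 1140 and 1086 in scl3-1, and 1304, 1415 and 1019 in SCL3 OE. It rose by 0.53 on the log2 scale in SCL3 OE against ga1-3 (SE 0.17, adjusted p = 0.0212). The groups still overlapped by a small margin, because SCL3 OE replicate 3 lay below ga1-3 replicate 1. The low ga1-3 replicate 3 carried much of the difference: without it the change was 0.29 (adjusted p = 0.11). The call also ended without SCL3 OE replicate 1 (0.49, adjusted p = 0.0709) or replicate 2 (0.43, adjusted p = 0.0993).

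SWEET16 read 843, 634 and 634 in ga1-3, 479, 503 and 679 in scl3-1, and 534, 511 and 509 in SCL3 OE. All 3 SCL3 OE arrays lay below all 3 ga1-3 arrays, while scl3-1 overlapped both groups. SWEET16 fell by 0.43 on the log2 scale in SCL3 OE against ga1-3 (SE 0.14, adjusted p = 0.0222). That call ended after quantile normalization (-0.30, adjusted p = 0.0905), without ga1-3 replicate 1 (-0.29, adjusted p = 0.0978), and without SCL3 OE replicate 2 (-0.42, adjusted p = 0.0632) or replicate 3 (-0.41, adjusted p = 0.0632). In scl3-1 the changes were -0.35 for SWEET16 (SE 0.14, adjusted p = 0.375) and 0.28 for SWEET17 (SE 0.17, adjusted p = 0.632), and neither passed.

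A ratio of both genes within an array is free of the array's scaling factor, and it was computed after the values had been seen. The log2 of SWEET17 over SWEET16 was 0.28, 0.64 and -0.04 in ga1-3, 0.91, 1.18 and 0.68 in scl3-1, and 1.29, 1.47 and 1.00 in SCL3 OE. Every scl3-1 and SCL3 OE array lay above every ga1-3 array, and scl3-1 and SCL3 OE overlapped. Means were 0.29 ± 0.34 (SD, n = 3), 0.92 ± 0.25 and 1.25 ± 0.24, so the SWEET17 to SWEET16 ratio was 1.55-fold higher in scl3-1 and 1.94-fold higher in SCL3 OE than in ga1-3. Both genes were picked for this ratio because their signals had moved apart, so these values are a description and carry no test.

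**Figure D2:**
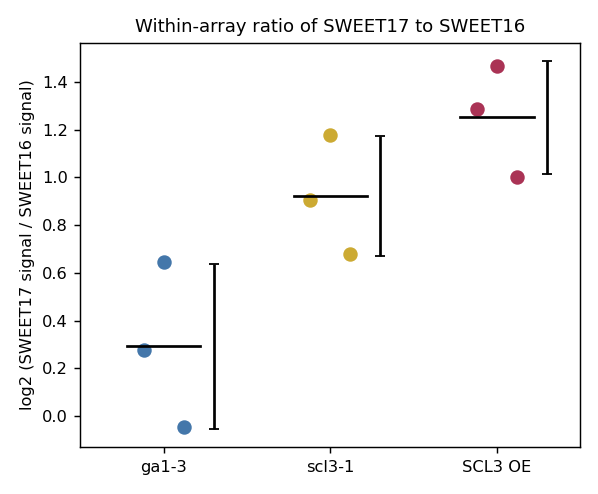
Log2 ratio of the SWEET17 signal to the SWEET16 signal on each array (vertical axis), by group, with a line at the mean and a bar for the SD of 3 arrays. Values run from -0.04 to 0.64 in ga1-3, from 0.68 to 1.18 in scl3-1 and from 1.00 to 1.47 in SCL3 OE.

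SWEET2 (AT3G14770), the vacuolar transporter gene of roots that limits sugar release to the soil, differed between both SCL3 lines. Its signal was 405, 393 and 439 in ga1-3, 309, 362 and 310 in scl3-1, and 418, 462 and 489 in SCL3 OE. The scl3-1 arrays were the 3 lowest of the 9, and ga1-3 and SCL3 OE overlapped. SWEET2 was higher in SCL3 OE than in scl3-1 by 0.48 on the log2 scale (SE 0.11, adjusted p = 0.00346), or 1.40-fold, and this call held under every alternative run, with adjusted p from 0.000586 to 0.0215. Against ga1-3 it did not pass in either line, at -0.34 in scl3-1 (SE 0.11, 95% interval -0.58 to -0.09, adjusted p = 0.269) and 0.14 in SCL3 OE (SE 0.11, adjusted p = 0.32).

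Of the hexose transporter genes, SWEET1 (AT1G21460), whose product is a plasma membrane glucose transporter, sat at the filter level. It read 81, 103 and 130 in ga1-3, 89.8, 100.4 and 114.7 in scl3-1, and 118.7, 161.6 and 166.3 in SCL3 OE. The SCL3 OE values were the only ones of a whole group above the filter level, so SWEET1 entered the kept set only through the group where it was highest, and its filtered tests cannot support a difference. In limma without the dim filter, which has no such selection, its log2 change was 0.54 against scl3-1 (SE 0.22, adjusted p = 0.098), where the groups did not overlap, and 0.52 against ga1-3 (SE 0.22, adjusted p = 0.103), where they did, and neither passed. Over the kept set the adjusted p was 0.0465 against scl3-1 and 0.0508 against ga1-3. The filtered call against scl3-1 ended without any 1 of 6 arrays (adjusted p 0.0504 to 0.151: all 3 scl3-1 arrays, ga1-3 replicate 2, and SCL3 OE replicates 2 and 3). In the kept set the difference from ga1-3 passed under 7 of the alternatives, but these tests carry the same selection and cannot support a difference either. Among them were both other scalings (0.56, adjusted p = 0.0356 after quantile normalization and 0.60, adjusted p = 0.0266 with median-centred arrays) and the block for replicate number (adjusted p = 0.0221). SWEET4 (AT3G28007), a hexose transporter gene, had signals of 13.6 to 35.8 over the 9 arrays, all far below the filter level, and its groups overlapped.

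**Figure D3:**
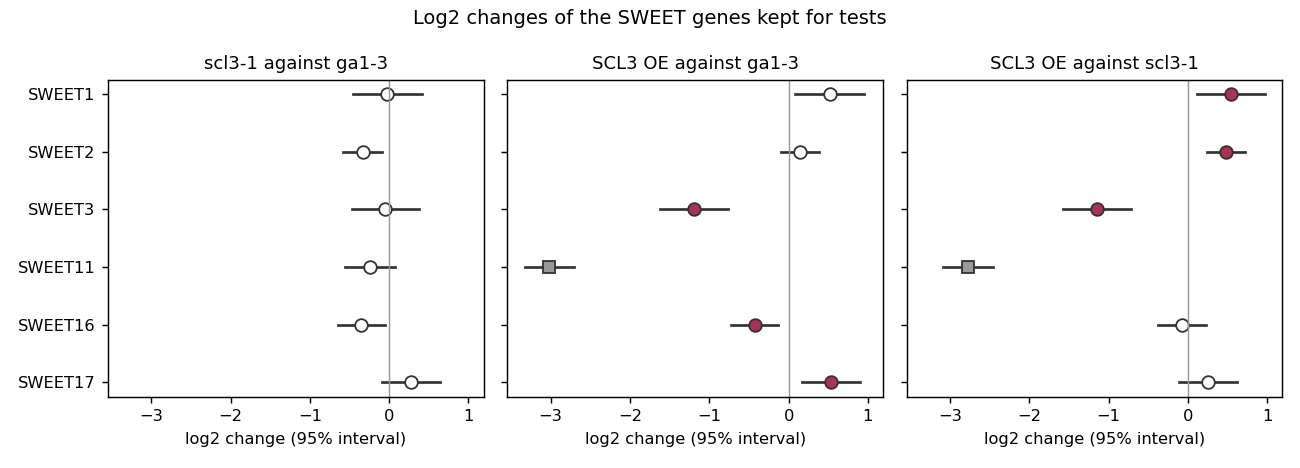
Log2 changes with 95% intervals (horizontal axis) of the 6 SWEET genes kept for tests in 3 comparisons. Filled circles passed at an adjusted p under 0.05, open circles did not, and grey squares mark SWEET11 in the comparisons it was selected on, where no test is given. In scl3-1 against ga1-3 all points lie between -0.35 and 0.28. SWEET1 and SWEET3 were kept through the groups where they were high, so their filled circles cannot support a difference.

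Counted together, 0 of the 5 kept genes of the list were called in scl3-1 against ga1-3, where limma called 0.538% of all kept probe sets. At an unadjusted p under 0.05 there were 2 of the 5, SWEET16 and SWEET2, beside 1506 of all 14117 kept probe sets. These 5 include SWEET11, chosen on a drop measured against the same ga1-3 arrays, and SWEET1, kept through its SCL3 OE values. In the same comparison the groups did not overlap for 1 of the 5, SWEET2, against 14.1% of all kept probe sets. In SCL3 OE against ga1-3, leaving out SWEET11, 1 of the 4 others rose (SWEET17), 1 fell (SWEET16), and SWEET2 and SWEET1, kept by the filter through its SCL3 OE values, did not pass. Of all kept probe sets 43.8% were called there, 18% as higher and 25.9% as lower (2540 and 3650 probe sets, which became 3187 and 2778 with median-centred arrays), so a share of 2 in 4 is near the background. Without SCL3 OE replicate 2, 0 of the 4 were called, and without ga1-3 replicate 1 or SCL3 OE replicate 3 it was 1. Leaving out SWEET11 again, groups did not overlap for 1 of the 4, SWEET16, where 53.6% of all kept probe sets did not overlap. In SCL3 OE against scl3-1, 39.2% of all kept probe sets were called and 15.5% called higher. Of the 3 tested genes that were above the filter level in every group, SWEET2 rose, and SWEET16 (-0.08, adjusted p = 0.697) and SWEET17 (0.25, adjusted p = 0.266) did not pass. SWEET1 was called there too, but it is left out of this count because the filter kept it through its SCL3 OE values. The comparisons share arrays, so their counts are not independent. Against ga1-3, the 5 kept genes had a median log2 change of -0.24 for scl3-1 and 0.14 for SCL3 OE, beside 0.01 and -0.07 over all kept probe sets. Both medians include SWEET11, chosen on its SCL3 OE signal, and SWEET1, kept through its SCL3 OE values. They are a description only: the scl3-1 median is the value of SWEET11 itself, and the SCL3 OE median that of SWEET2.

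**Figure D4:**
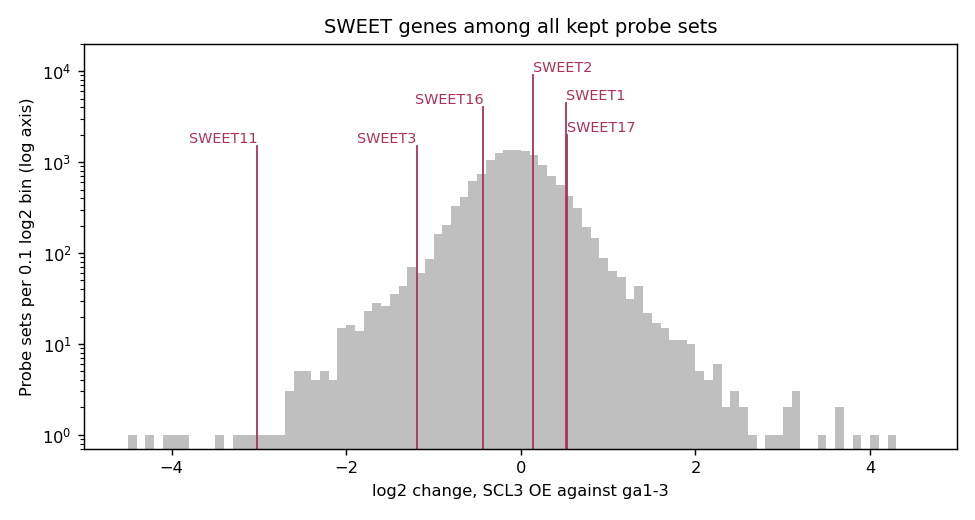
Histogram of the log2 changes of all 14117 kept probe sets in SCL3 OE against ga1-3 (horizontal axis; counts on a log axis), with lines at the 6 kept SWEET genes, whose heights carry no value. SWEET11 at -3.02 lies in the far lower tail and SWEET3 at -1.19 in the lower tail, while SWEET1, SWEET2, SWEET16 and SWEET17 lie between -0.43 and 0.53.

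Outside the list, SWEET3 (AT5G53190) was the only other family member kept, and it was lower in SCL3 OE. Its signal was 147, 119 and 138 in ga1-3, 108, 149 and 136 in scl3-1, and 53.8, 50.5 and 74.7 in SCL3 OE. The SCL3 OE arrays lay below all others and below the filter level, so the gene was kept through the groups where it was high. In limma without the dim filter SWEET3 fell in SCL3 OE by 1.19 on the log2 scale against ga1-3 (SE 0.22, adjusted p = 0.00123) and by 1.15 against scl3-1 (SE 0.22, adjusted p = 0.00191). Over the kept set the adjusted p was 0.000227 and 0.000364. With an offset of 50 these falls were -0.76 and -0.72. In scl3-1 against ga1-3 the SWEET3 change was -0.05 (SE 0.20, adjusted p = 0.969). The other 6 genes reached the filter level on no array. SWEET5 (AT5G62850, also VEX1), known from pollen, had signals of 3.96 to 38.8. SWEET8 (AT5G40260), needed for pollen development, read 6.72, 2.86 and 35.2 in ga1-3, 3.8, 19.6 and 3.05 in scl3-1, and 35.3, 46.7 and 62.7 on the SCL3 OE arrays. Its 3 SCL3 OE values were the highest of the 9, by a small margin over ga1-3 replicate 3. In limma without the dim filter SWEET8 passed against scl3-1 (adjusted p = 0.0262), where 23.9% of probe sets were called, and not against ga1-3 (adjusted p = 0.0574). SWEET9 (AT2G39060), known from nectaries, lay between 14.6 and 39.2, SWEET6 (AT1G66770) between 16.6 and 55.9, and SWEET7 (AT4G10850) between 1.59 and 17.7.

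Other genes of sugar transport and metabolism were sparsely covered. Of 75 genes in 9 lists, the other SWEET genes included, 18 were on named probe sets and 6 were kept. Sucrose-proton symporters, sucrose synthases, hexokinases and sugar starvation genes had 0 measured members, and the 4 measured hexose-proton symporters and the sucrose phosphate synthase gene ATSPS4F reached the filter level on no array. In scl3-1 against ga1-3, 0 of the 6 kept genes were called. In SCL3 OE against ga1-3, 3 rose, 1 fell (SWEET3) and 2 did not pass. SWEET3 was kept through the groups where it was high, so its filtered call cannot support a fall. In limma without the dim filter it also passed as lower (adjusted p = 0.00123). The shares over all kept probe sets were 0.538% called in scl3-1 and 43.8% in SCL3 OE (18% higher and 25.9% lower), and 6 genes are too few to set apart from these.

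The vacuolar list held 2 of the genes that rose in SCL3 OE. AT5G17010, listed by locus, had signals of 655, 856 and 815 in ga1-3, 796, 888 and 858 in scl3-1, and 1157, 1220 and 1143 in SCL3 OE. It rose by 0.61 against ga1-3 (SE 0.11, adjusted p = 0.000363), passing under every alternative run (adjusted p 0.000177 to 0.00308). TMT2 (AT4G35300), a sugar importer gene of the vacuolar membrane, rose by 0.32 (SE 0.12, adjusted p = 0.0432). TMT2 lost the call without the dim filter (adjusted p = 0.0633), with the block for replicate number (0.0512), and without ga1-3 replicate 2 or 3 or any 1 SCL3 OE replicate (adjusted p 0.0748 to 0.122). TMT1 (AT1G20840), its homologue, was at -0.13 (SE 0.10, adjusted p = 0.285), and TMT3 (AT3G51490) stayed at 5.76 to 63.4, below the filter level. On the invertase list, AT1G62660 went from 6505 ± 581 (SD, n = 3) in ga1-3 to 9420 ± 391 in SCL3 OE (0.54, SE 0.09, adjusted p = 0.00019). After quantile normalization that change was 0.02 (adjusted p = 0.833). The cell wall invertase family gene cwINV6 (AT5G11920), annotated as a fructan exohydrolase, was at -0.26 (SE 0.17, adjusted p = 0.228) and passed only without ga1-3 replicate 3 (-0.43, adjusted p = 0.0499).

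The measured root cell type markers were lower in the SCL3 OE group. Of 12 listed root markers 4 were on named probe sets and all 4 fell in SCL3 OE against ga1-3: the cortex marker AT1G09750 (-1.14, SE 0.10, adjusted p = 3.58e-07), the cortex marker AT1G62500 (-0.63, SE 0.20, adjusted p = 0.0171), and the root hair expansin genes EXPA18 (-0.91, SE 0.09, adjusted p = 2.38e-06) and EXPA7 (-0.37, SE 0.12, adjusted p = 0.0212). AT1G62500 did not pass with ga1-3 replicate 1 left out (adjusted p = 0.08), nor with replicate 2 of SCL3 OE left out (0.0751). EXPA7 did not pass after quantile normalization (0.103) or with 1 array left out, ga1-3 replicate 1 (0.0941) or replicates 1 (0.0689) or 2 (0.0557) of SCL3 OE. Over all kept probe sets 25.9% were called lower there. The only measured phloem gene of 16 listed, OPS, a protophloem differentiation gene, was at -0.22 (SE 0.18, adjusted p = 0.34), and of 11 xylem markers 0 were measured. Of 11 green shoot markers 2 were measured, and RCA rose (0.32, SE 0.10, adjusted p = 0.0211) while LHCB4.1 fell by 0.51 on the log2 scale (SE 0.12, adjusted p = 0.00405). The RCA call ended without ga1-3 replicate 1 (0.054) or without any 1 SCL3 OE replicate (0.0515 to 0.063). The part of cell composition in the SWEET differences was not tested.

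Many genes shared the profile of SWEET11 over the 9 arrays. Among 455 kept probe sets with 1 gene whose group means spanned at least 1 on the log2 scale, 121 had a Pearson r above 0.95 with SWEET11. The 6 most alike were AT3G04640 (r = 0.996), AT5G01750 (0.992), AT1G27620 (0.990), the ARGOS-like gene ARL (AT2G44080, 0.990), AT1G10530 (0.988) and AT1G31050 (0.988). These values describe 9 arrays in 3 groups and are set mainly by the SCL3 OE arrays. Over the 6 arrays without SCL3 OE, the r of these genes with SWEET11 was 0.46 for ARL and between 0.69 and 0.93 for the other 5. For deviations from group means, r was 0.25 for ARL, 0.39 for AT1G10530 and 0.57 to 0.86 for the rest. The genes were chosen by r over all 9 arrays, these 6 included. Such values are therefore a description and cannot support a shared variation. Their own drops were smaller than that of SWEET11, at -1.96 for ARL (SE 0.10), -1.65 for AT5G01750 (SE 0.10), -1.58 for AT1G10530 (SE 0.12), -1.26 for AT1G27620 (SE 0.14), -1.24 for AT3G04640 (SE 0.09) and -1.03 for AT1G31050 (SE 0.13).

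**Figure D5:**
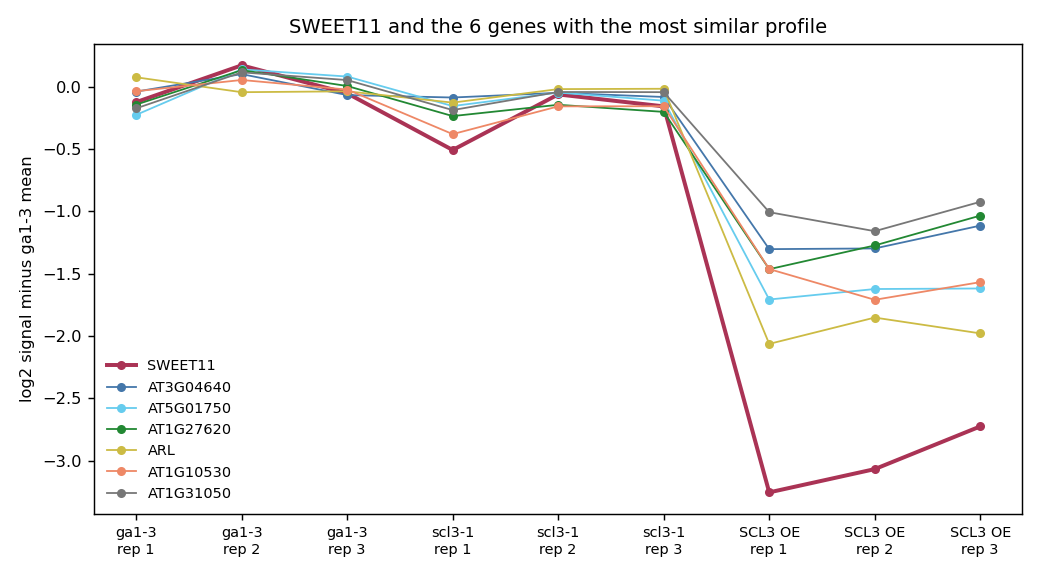
Log2 signal minus the gene's ga1-3 mean (vertical axis) on the 9 arrays for SWEET11, drawn thick, and the 6 genes with the highest Pearson r to it. Lines join the arrays for reading only, and all 7 genes are near 0 on the ga1-3 arrays, at most slightly lower on the scl3-1 arrays and lower on the SCL3 OE arrays, SWEET11 the most.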

How the data were processed

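The deposited values are linear MAS5 intensities, 1 per probe set and array, which the authors made with Affymetrix Expression Console 1.1 per the submitters' processing notes. The 2% trimmed mean was 496.0 to 497.0 on every array, and no detection calls were in the table. The distributions still differed by group. Median signals were 182.7 to 184.5 on the SCL3 OE arrays and 189.7 to 204.3 on the other arrays. Highest signals were 25484.8 to 31860.3 on the SCL3 OE arrays and 15820.5 to 23033.7 on the other arrays. Per the labels, 300 ng of RNA per sample was amplified with a 3' IVT kit. Signals were taken to log2 with this scaling kept, and probe sets reaching the array's 40th percentile (100.2 to 110.2) on 3 or more arrays were kept. With limma 3.58.1 in R 4.3.3 (lmFit, eBayes with trend), 1 mean per group was fitted to the 9 arrays together, leaving 6 residual degrees of freedom, and p-values were adjusted over all kept probe sets. The step was also run on simulated data with normal noise, in which few probe sets changed. That run does not cover changes as widespread as in SCL3 OE against ga1-3, where 43.8% of kept probe sets were called. The number of arrays limits the precision.

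Genes were named by GEO's platform annotation, which can be old (13513 probe sets with 1 gene, 503 with several, 8730 unnamed here) and by RefSeq loci of TAIR10.1, to which 13436 of the 13513 matched. Gene lists of sugar transport, sugar metabolism, senescence (0 of 6 measured) and cell type markers, the named genes and the members were chosen with earlier results of these data known. The rule named every SWEET gene on a 1-gene probe set, all measured genes of a list with at most 6 of them, and the 6 genes most like SWEET11. Alternatives changed the dim filter (none, or the 60th percentile), the scaling (quantile, or median-centred), the log (an offset of 50), the model (no trend, a replicate block, or only those 6 arrays a comparison is about) and the samples (each array left out). For same-numbered replicates, the correlation of their deviations from group means was -0.19 to 0.18, above 0.1 in 3 of 9 pairs. Differently numbered replicates were not compared, so whether the numbers pair the samples was not settled.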

Additional observations from a re-analysis of the deposited data

How the results depend on the processing

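SWEET11 stayed lower in SCL3 OE than in ga1-3 in all 17 alternatives, with a log2 difference of -3.16 to -2.62, and its offset value of -2.62 was the only one further from -3.02 than the replicate spread. The count of the list's genes called in SCL3 OE against ga1-3, 2 of the 4 tested, was 0 to 2 with 1 array left out, and against scl3-1, also 2, it was 1 to 2 with 1 array left out and 1 without a dim filter or with the filter at the 60th percentile, which drops SWEET1. Both counts include SWEET1, which the filter kept through its SCL3 OE values, and the 2 against scl3-1 were SWEET1 and SWEET2. Without ga1-3 replicate 3 or SCL3 OE replicate 1, the count against ga1-3 stayed at 2 only because SWEET1 gained a call (adjusted p = 0.0195 and 0.0249) where SWEET17 lost its own. The count against ga1-3 was 3 with a replicate block, with median-centred arrays, with the offset and by eBayes without trend, each through SWEET1, and 3 without a dim filter, through SWEET13. The replicate block ended the call of TMT2 and added that of SWEET1, both in SCL3 OE against ga1-3. It changed no other call of the listed genes kept for tests. It was not run as a test for genes below the filter, SWEET8 and SWEET13 among them, or for the genes most like SWEET11. Over all kept probe sets, the 76 called in scl3-1 against ga1-3 became 36 without a dim filter, 20 by eBayes without trend, 30 with only the 6 arrays compared and 3 to 148 with 1 array left out. Scaling moved the share of higher calls among probe sets called in SCL3 OE against ga1-3 from 41% to 48.6% after quantile normalization and 53.4% with median-centred arrays. In scl3-1 it moved from 68.4% to 59.2% with median-centred arrays, and in SCL3 OE against scl3-1 from 39.6% to 49.2% and 59%. The median log2 change of all kept probe sets in SCL3 OE against scl3-1 was -0.07 as deposited, 0.01 after quantile normalization and 0.06 with median-centred arrays, and SWEET2 passed as higher under all of these scalings. Of the called changes of listed genes, 1 turned direction: AT1G62660 in SCL3 OE against scl3-1 was 0.48 as deposited and -0.0756 after quantile normalization. Changes that were not called also changed sign, among them SWEET16 in SCL3 OE against scl3-1 (-0.08 as deposited, 0.06 after quantile normalization and 0.04 with median-centred arrays). The cause of these changes was not tested. With 3 arrays per group and no detection calls, differences of genes below the filter level (SWEET4, SWEET13, SWEET14, SWEET15) remain uncertain in size. Those of SWEET4, SWEET14 and SWEET15 also remain uncertain in sign.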
